A study of Homo sapiens with 6 samples.

Results

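10 secreted signals that draw or sustain neutrophils and monocytes were followed in HaCaT cells, an established line of spontaneously immortalised human keratinocytes. They comprise 7 chemokine genes, CXCL1, CXCL2, CXCL3, CXCL5, CXCL8, CCL2 and CCL20, and 3 colony-stimulating factor genes, CSF1, CSF2 and CSF3. The members were chosen by gene symbol, with earlier results of these data known. Of the 60671 genes in the deposited table, 10 carry one of these symbols, 1 row each. The tested cells were wild-type HaCaT kept for 24 h in serum-free high-glucose medium to which 160 ng/mL of IFN-beta, the type I interferon beta, was added (n = 3 libraries). The control cells, also wild type, spent the same 24 h in that serum-free medium without IFN-beta (n = 3 libraries). Both groups had been grown in serum before the switch, so serum withdrawal is common to them, and their batch is labelled unknown.

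Chemokines are small secreted proteins that bind receptors on leukocytes and direct their movement. CXCL1, CXCL2, CXCL3, CXCL5 and CXCL8 act on the neutrophil receptor CXCR2, CXCL8 also on CXCR1, while CCL2 binds CCR2 on monocytes and CCL20 binds CCR6 on dendritic cells and on T cells that make interleukin 17. CSF1, CSF2 and CSF3, also known as M-CSF, GM-CSF and G-CSF, support the growth and survival of macrophages, of myeloid cells broadly and of neutrophils. Keratinocytes make most of these signals after injury or exposure to interleukin 1, tumour necrosis factor or interleukin 17, largely through NF-kB, and many of the messenger RNAs are short-lived because of AU-rich elements in their 3' untranslated regions.

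Levels are FPKM as deposited, a unit that corrects fragment numbers for the length of the gene and the size of the library. As recovered from the FPKM themselves, between 25832158 and 30594527 reads per library stood behind them. Read counts of single genes were recovered in the same way. Errors between libraries are SD (n = 3 per group), and a change is a difference of group means of log2(FPKM + 0.5) with its SE. A gene was called at an adjusted p under 0.05 in limma over all 15163 genes with a mean of at least 0.5 FPKM. Whether the 3 libraries of a group came from separate cultures is not labelled, so p-values reflect their spread alone, and that spread may be technical. The 8 keratinocyte markers were all present, with a summed level of 3207 to 3284 FPKM in IFN-beta libraries and 3226 to 3529 FPKM in control libraries. Summed markers of leukocytes (9 genes) reached 4.67 to 5.00 FPKM with IFN-beta and 3.60 to 5.04 FPKM in controls. CD14 held most of that sum, at 3.43, 3.29 and 3.82 FPKM with IFN-beta and 2.75, 3.96 and 2.83 FPKM in controls. It was not called (log2 change 0.14, limma adjusted p = 0.438), and LYZ and FCGR3B were at 0 in all 6 libraries. Fibroblast markers (5 genes) summed to 2.36 to 3.11 FPKM with IFN-beta and 1.51 to 2.36 FPKM in controls. Endothelial markers (4 genes) summed to 2.12 to 2.22 FPKM with IFN-beta and 0.696 to 0.964 FPKM in controls, and melanocyte markers (4 genes) to 1.44 to 1.87 FPKM with IFN-beta and 1.41 to 1.43 FPKM in controls. 1 marker each of leukocytes, fibroblasts and endothelium was called higher (ITGAM, COL1A1 and CDH5). Of the keratinocyte markers, 5 were called higher, KRT17 (0.37), TP63 (0.41), ITGB4 (0.22), SFN (0.19) and CDH1 (0.16), and KRT5 was called lower (-0.51). Among all tested genes, 22.5% were called higher and 19.9% lower. The part of other cells in the members' changes was not tested.

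With IFN-beta, transcripts of the neutrophil attractants CXCL8, CXCL1 and CXCL2, of the CCR6 ligand CCL20 and of all 3 colony-stimulating factors rose, while CCL2, the monocyte attractant, fell. CXCL3 did not pass the test and CXCL5 was too low to be tested. Of the 9 members tested, 8 were called, where 42.4% of all tested genes were called. Of these, 7 were higher, against 22.5% of all tested genes, and 1 was lower, against 19.9%. Higher genes were 53.2% of all calls, a share that became 63.2% when libraries were rescaled to one sum and 41.3% after quantile normalization, while the members' 7 and 1 held in both. A rise of at least 1 on the log2 scale was called in 4 members, CSF3, CCL20, CSF2 and CXCL8, and in 2.96% of all tested genes. The groups did not overlap in 8 of the 9, against 54.0% of all tested genes. The median change of the 9 was 0.81 on the log2 scale and that of all tested genes was 0.01. CSF3 met the minimum of 0.5 FPKM only through its IFN-beta libraries (mean 2.01 FPKM, against 0.210 FPKM in controls). A gene low in both groups, as CXCL5 was, did not enter these counts. With no minimum level CSF3 was still called (limma adjusted p = 0.00107) and CXCL5 was not (0.491). The members were chosen with earlier results of these data known, so these counts carry no test.

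**Figure D1:**
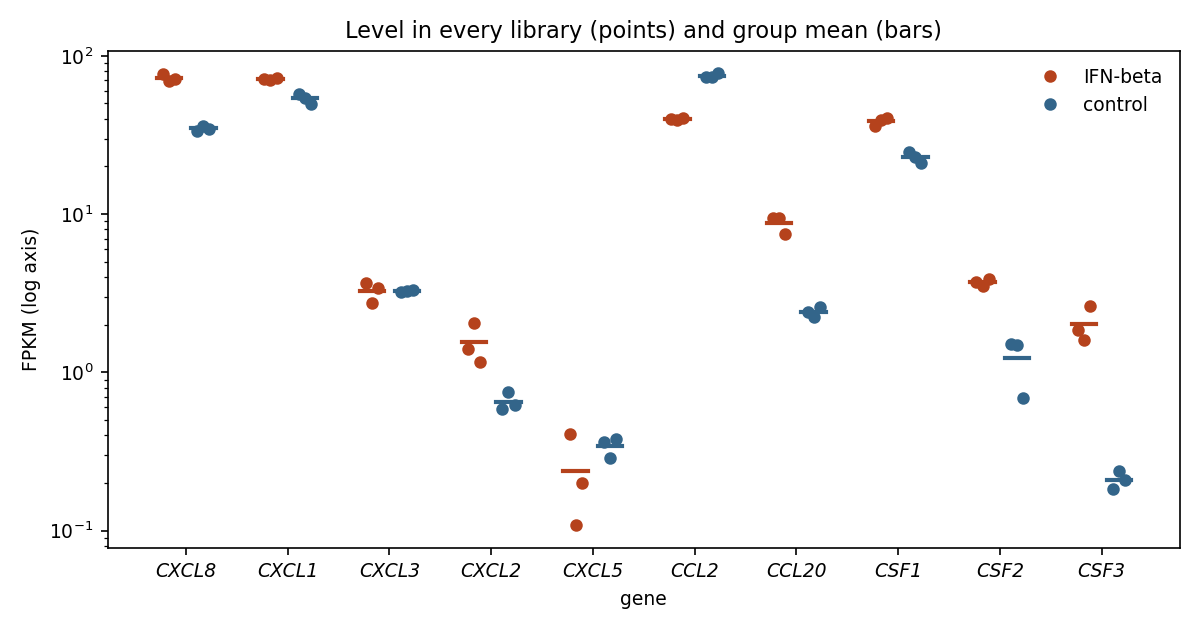
Level of each of the 10 genes in every library, in FPKM on a log axis, with IFN-beta libraries left of control libraries and short bars at the group means. CCL2 is the called gene whose 3 IFN-beta values lie below its control values, and for CXCL3 and CXCL5 the groups overlap.

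Among the CXC chemokines, CXCL8 is interleukin 8, the chief human neutrophil attractant. It lies on chromosome 4 from 73740541 to 73743716 and stood at 76.8, 69.1 and 71.7 FPKM in IFN-beta libraries, against 33.7, 36.2 and 34.5 FPKM in control libraries. All 3 values with IFN-beta lay above all 3 controls. The log2 change was 1.05 ± 0.050 (limma adjusted p = 7.06e-07), a ratio of mean FPKM of 2.09, on 1800 to 2269 reads per IFN-beta library and 873 to 1063 per control library.

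CXCL1 (chromosome 4, 73869393 to 73871308), a CXCR2 ligand first named for its growth effect on melanoma cells, moved less than CXCL8. Its levels were 71.6, 70.0 and 72.1 FPKM with IFN-beta and 57.1, 54.5 and 49.8 FPKM in controls. The groups did not overlap, and the change was 0.40 ± 0.052 (limma adjusted p = 3.53e-04).

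CXCL2 (chromosome 4, 74097040 to 74099196), a close paralog of CXCL1 that also binds CXCR2, was far scarcer, at 1.41, 2.05 and 1.17 FPKM with IFN-beta, against 0.584, 0.753 and 0.617 FPKM in controls. These values rested on 27 to 41 reads per IFN-beta library and 12 to 17 reads per control library. The groups did not overlap, and the change was 0.81 ± 0.178 (limma adjusted p = 0.00619). This is below the change of CXCL8 on the log2(FPKM + 0.5) scale, but the ratio of mean FPKM was 2.37 for CXCL2 and 2.09 for CXCL8, so their order depends on the scale.

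CXCL3 (chromosome 4, 74036589 to 74038807), the third of these close paralogs, stood at 3.69, 2.73 and 3.42 FPKM with IFN-beta and at 3.24, 3.26 and 3.30 FPKM in controls. The control values lay inside the range of the IFN-beta values. The change was -0.003 ± 0.111 (limma adjusted p = 0.985), with a 95% interval of -0.25 to 0.25, which does not reach the change of CXCL1, CXCL2 or CXCL8. That difference between paralogs was not tested as such. The sign of the CXCL3 change turned in 4 of 18 alternative settings, and no setting called it.

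The 3 paralogs are alike in sequence, so reads could be split between them. Of the 75-base words in the GENCODE release 29 transcripts of CXCL2, 7.1% also occur in transcripts of CXCL3 or CXCL1. The share was 4.6% for CXCL3 and 0.2% for CXCL1, both shared with CXCL2. In CXCL8, CCL2, CCL20, CSF1, CSF2 and CSF3 it was 0.0%. None of the 10 genes shares exonic bases with an overlapping gene on either strand in that annotation.

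CXCL5 (chromosome 4, 73995642 to 73998677), an epithelial CXCR2 ligand, was barely detected, at 0.408, 0.108 and 0.201 FPKM with IFN-beta, against 0.361, 0.287 and 0.381 FPKM in controls. The groups overlapped, on 7 to 30 reads with IFN-beta and 21 to 26 reads in controls. Its mean was below the minimum for testing. Without that minimum the change was -0.21 ± 0.159, with a 95% interval of -0.59 to 0.17 (limma adjusted p = 0.491). CXCL6, a further CXCR1 and CXCR2 ligand that is not a member, had 11.2 ± 0.589 FPKM with IFN-beta and 11.4 ± 0.360 FPKM in controls and was not called (log2 change -0.02, limma adjusted p = 0.834). The remaining CXCR2 ligand PPBP had 3 reads in 1 IFN-beta library and 1 read in 1 control library, and the related platelet chemokine PF4 was at 0 in all libraries.

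CCL2 (MCP-1; chromosome 17, 34255218 to 34257203), which recruits CCR2-bearing monocytes, moved the other way. It stood at 40.1, 39.2 and 40.5 FPKM with IFN-beta, against 73.3, 73.4 and 77.5 FPKM in controls. The IFN-beta values lay within 2 FPKM of each other and far below the lowest control. The change was -0.90 ± 0.040 (limma adjusted p = 4.10e-07), with a 95% interval of -0.99 to -0.81, and the ratio of mean FPKM was 0.534. Reads per library numbered 902 to 1072 with IFN-beta and 1733 to 1908 in controls. In bulk RNA, fewer cells that make a transcript and less of it per cell cannot be told apart. The other CCR2 ligands did not make up a measurable pool: CCL7 had 2 to 7 reads with IFN-beta and 1 to 7 in controls, CCL8 had at most 1 read per library, and CCL13 had none.

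CCL20 (MIP-3 alpha; chromosome 2, 227805739 to 227817564), the sole chemokine ligand of CCR6, rose most among the 7 chemokines. Its levels were 9.49, 9.45 and 7.49 FPKM with IFN-beta and 2.42, 2.24 and 2.60 FPKM in controls, with no overlap. The change was 1.67 ± 0.106 (limma adjusted p = 4.83e-06), a ratio of means of 3.64.

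All 3 colony-stimulating factors rose, at very different levels. CSF1 (chromosome 1, 109910242 to 109930992), the macrophage factor that many cell types make constitutively, was the most abundant. It had 36.2, 39.5 and 40.4 FPKM with IFN-beta, against 24.6, 22.8 and 21.1 FPKM in controls, a change of 0.75 ± 0.066 (limma adjusted p = 3.65e-05). CSF2 (chromosome 5, 132073789 to 132076170), the granulocyte-macrophage factor, had 3.70, 3.53 and 3.86 FPKM with IFN-beta, against 1.50, 1.48 and 0.688 FPKM in controls. The third control library was the lowest, with 14 reads where the other two had 35 each. The change was 1.32 ± 0.194 (limma adjusted p = 7.11e-04).

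CSF3 (chromosome 17, 40015361 to 40017813), the granulocyte factor, was the lowest of the 10 genes in control libraries and had the highest ratio of mean FPKM. It had 1.84, 1.59 and 2.61 FPKM with IFN-beta and 0.182, 0.239 and 0.208 FPKM in controls. No value overlapped, on 47 to 89 reads with IFN-beta and 6 to 8 reads in controls. The change was 1.80 ± 0.176 on the log2(FPKM + 0.5) scale (limma adjusted p = 7.01e-05), which understates low genes. With a pseudocount of 1 its change (1.30) was below that of CCL20 (1.51), as it was without IFN-beta replicate 3 (1.64 and 1.77). The ratio of mean FPKM was 9.59, and with limma voom on the reads recovered from the FPKM the log2 change was 3.16 (adjusted p = 2.54e-06). IL34, the other ligand of the CSF1 receptor, had no reads with IFN-beta and at most 1 read in a control library.

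**Figure D2:**
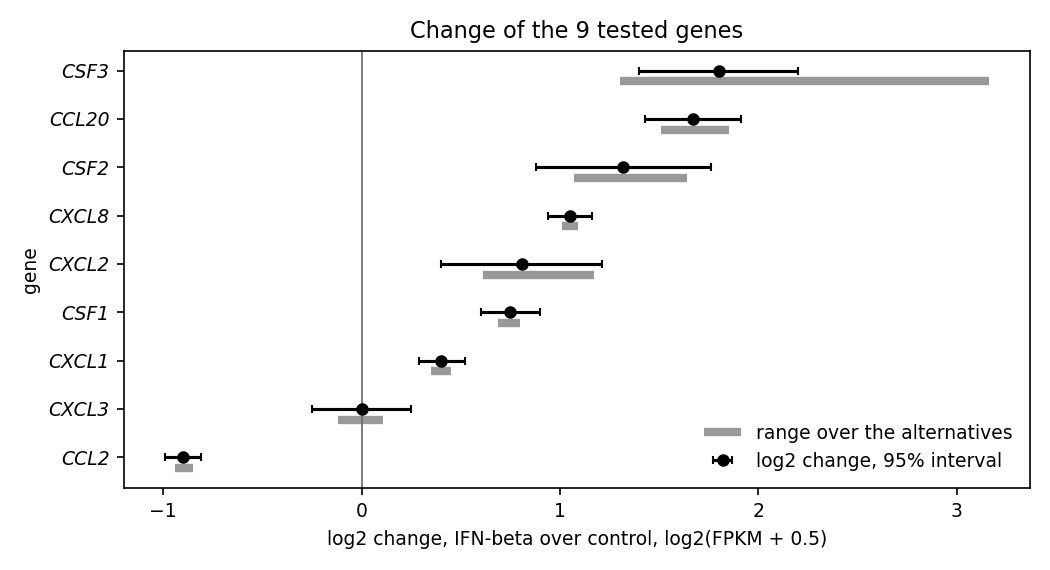
Change of the 9 tested genes, IFN-beta over control, as log2(FPKM + 0.5), with 95% intervals (black) and the range over the alternative settings (grey). CCL2 lies at -0.90 and CSF3 at 1.80, and the interval of CXCL3 spans 0.

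The order of the transcripts therefore differed between the groups. FPKM are scaled by gene length, so levels can be set beside each other within a library, with the limit that the length behind the FPKM is the authors' own. For CSF1 that length was 1359 bases, while GENCODE release 29 gives 5418 exonic bases. It was also below the exonic bases in most other members, as in CXCL8 (980 against 2274) and CCL2 (866 against 1986). In CXCL5 (2436 against 2538) and CSF2 (788 against 787) the lengths were close. With IFN-beta, CXCL8 (mean 72.5 FPKM) and CXCL1 (71.2 FPKM) led and their ranges overlapped, followed by CCL2 (39.9 FPKM) and CSF1 (38.7 FPKM), whose ranges also overlapped. Then came CCL20 (8.81 FPKM), CSF2 (3.70 FPKM) and CXCL3 (3.28 FPKM), the last pair overlapping, then CSF3 (2.01 FPKM) and CXCL2 (1.54 FPKM), again overlapping, and CXCL5 (0.239 FPKM). In controls CCL2 led with a mean of 74.7 FPKM, followed by CXCL1 (53.8 FPKM), CXCL8 (34.8 FPKM) and CSF1 (22.8 FPKM), with no overlap between neighbours. Below them stood CXCL3 (3.27 FPKM), CCL20 (2.42 FPKM), CSF2 (1.22 FPKM), CXCL2 (0.651 FPKM), CXCL5 (0.343 FPKM) and CSF3 (0.210 FPKM), and of these neighbours CSF2 and CXCL2 overlapped.

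The balance of CCL2 against the CXC chemokines was read within each library. The ratio of CCL2 to CXCL8 FPKM was 0.522, 0.567 and 0.564 with IFN-beta, against 2.18, 2.03 and 2.25 in controls. The ratio of CCL2 to CXCL1 was 0.560, 0.560 and 0.561 with IFN-beta and 1.28, 1.35 and 1.56 in controls. CCL2 thus stood above both CXC chemokines in every control library and below both in every IFN-beta library. The FPKM of the 7 chemokines summed to 198 ± 5.45 with IFN-beta and 170 ± 1.18 in controls. Of that sum CCL2 made up 20.2% ± 0.454 with IFN-beta and 44.0% ± 1.70 in controls. The 5 CXC chemokines made up 75.3% ± 0.505 with IFN-beta and 54.6% ± 1.80 in controls, and CCL20 4.46% ± 0.575 with IFN-beta and 1.42% ± 0.115 in controls (SD, n = 3 each). These shares describe genes chosen with earlier results known and carry no test.

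**Figure D3:**
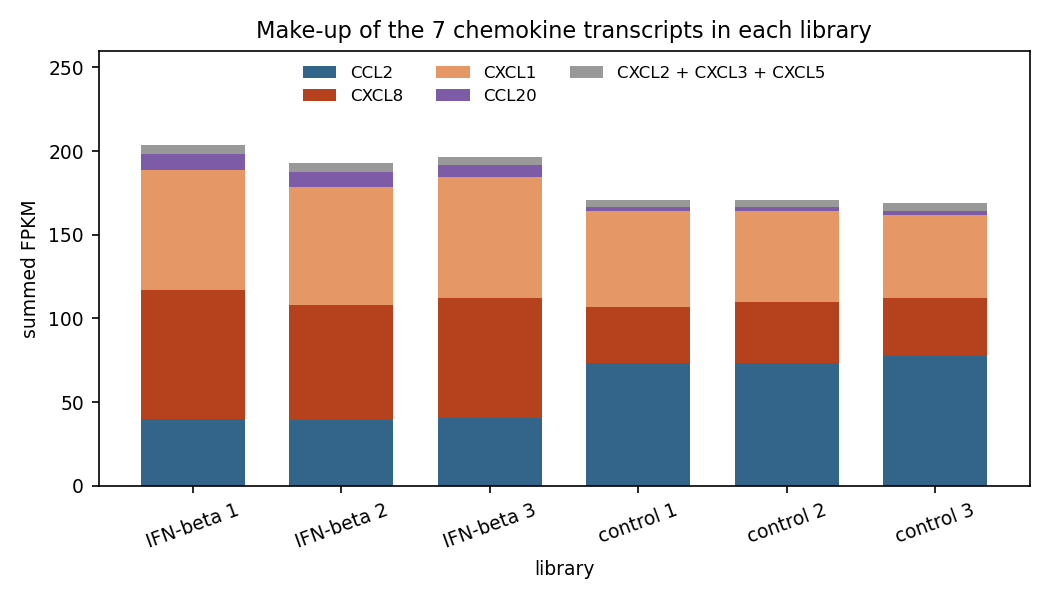
Summed FPKM of the 7 chemokine transcripts in each library, with the 3 IFN-beta libraries left of the 3 control libraries and colours for single genes. The CCL2 segment is 39.2 to 40.5 FPKM high with IFN-beta and 73.3 to 77.5 FPKM high in controls, while the CXCL8 segment is 69.1 to 76.8 FPKM high with IFN-beta and 33.7 to 36.2 FPKM high in controls.

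Promoter sequence was examined as a description of the members, and its part in their changes was not tested. RefSeq windows of 250 bases before to 50 after the gene start (build GRCh38.p14) were at hand for 7 of the 10 members. They were lacking for CSF1, CSF3 and CCL2, so the member that fell is not covered. The 100 bases from -130 to -31 follow for each, on the gene's own strand. Capitals mark NF-kB-like matches, defined as GGG, any 3 bases and TTCC, or as GGNNTTTCC, on either strand, and these definitions overlap at most of the sites.
CXCL1, chr4:73869263-73869362, plus strand: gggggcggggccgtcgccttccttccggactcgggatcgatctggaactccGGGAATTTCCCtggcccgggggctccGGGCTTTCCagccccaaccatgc
CXCL2, chr4:74099226-74099325, minus strand: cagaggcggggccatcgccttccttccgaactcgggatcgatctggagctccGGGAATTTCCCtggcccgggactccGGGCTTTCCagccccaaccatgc
CXCL3, chr4:74038720-74038819, minus strand: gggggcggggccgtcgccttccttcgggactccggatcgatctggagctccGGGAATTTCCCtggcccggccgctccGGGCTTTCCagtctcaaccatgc
CXCL5, chr4:73998708-73998807, minus strand: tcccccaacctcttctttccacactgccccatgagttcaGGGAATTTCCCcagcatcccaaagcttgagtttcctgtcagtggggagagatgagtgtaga
CXCL8, chr4:73740439-73740538, plus strand: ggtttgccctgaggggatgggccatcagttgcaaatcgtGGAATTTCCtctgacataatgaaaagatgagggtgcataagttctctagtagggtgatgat
CCL20, chr2:227813712-227813811, plus strand: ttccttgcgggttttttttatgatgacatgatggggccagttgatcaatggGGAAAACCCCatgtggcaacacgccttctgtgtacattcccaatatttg
CSF2, chr5:132073659-132073758, plus strand: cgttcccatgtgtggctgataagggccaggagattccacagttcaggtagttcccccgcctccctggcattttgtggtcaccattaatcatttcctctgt

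The stretches of CXCL1, which was called higher, and of CXCL3, which was not called, were identical at 93 of 100 positions. Each of CXCL1, CXCL2 and CXCL3 held 2 blocks of matches, the first beginning at -79, -78 and -79 and the second at -53 in all 3. CXCL5, at 0.239 FPKM with IFN-beta and 0.343 FPKM in controls, held a block beginning at -91 with the same 11 letters as the first block of its paralogs. CXCL8 matched only GGNNTTTCC, from -91 to -83, and CCL20 matched on the opposite strand from -79 to -70. In all, 6 of the 7 windows held an NF-kB-like match, as did 10.6% of the 35116 promoter windows in the table. The stretches of CXCL1, CXCL2 and CXCL3 were 73.7% to 93.0% identical in pairs, so these 6 are not all separate instances. CSF2 held none, which says only that these letters are not in its window.

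Other motifs were rarer in these windows. The AP-1 motif TGANTCA occurred in CXCL8 alone, from -137 to -131, and in 7.71% of all windows. The GAS motif TTCNNNGAA, a form bound by STAT dimers, occurred in CXCL5, where it overlaps the NF-kB-like block, and in CSF2, and in 7.66% of all windows. A C/EBP-like motif, TTNCNNAA, occurred in CXCL2 and in 36.8% of all windows. The interferon-stimulated response element, searched as TTTC, any 2 bases and TTTC, occurred in 0 of the 7 windows and in 3.57% of all. Both strands were searched throughout, and a match is a description of letters, not a site of binding.

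**Figure D4:**
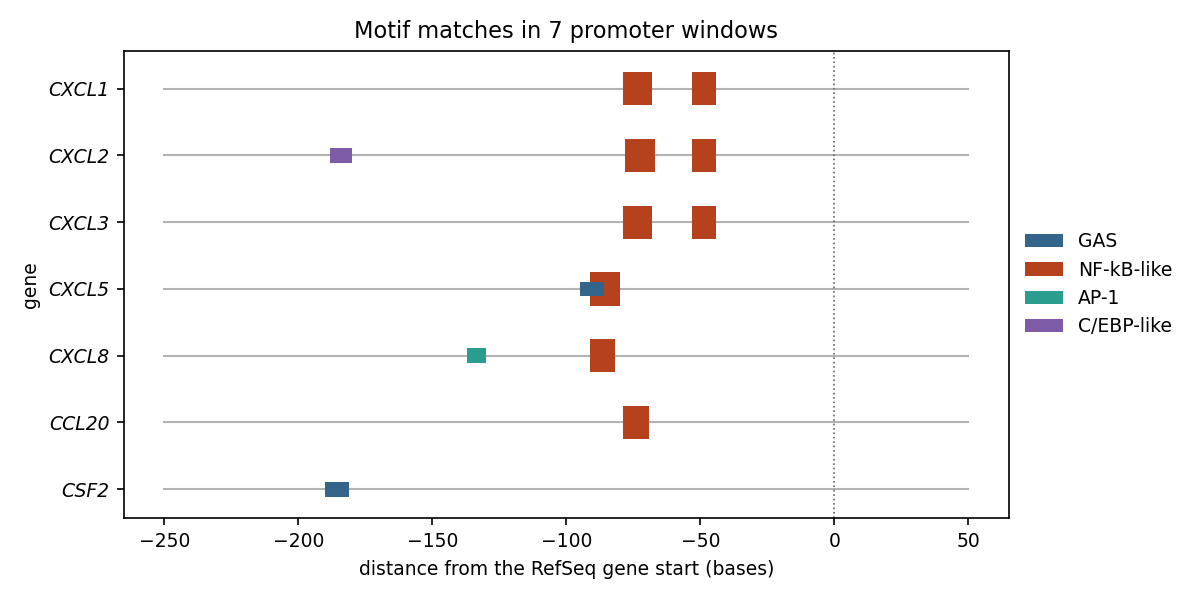
Motif matches in the 7 promoter windows by distance from the RefSeq gene start in bases, with matches on both strands pooled. NF-kB-like matches lie between -91 and -45 in 6 of the 7 genes, and CSF2 has a GAS match from -190 to -182.

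The 3' untranslated regions also differed among members. The AU-rich pentamer ATTTA marks many short-lived messenger RNAs. In the longest annotated 3' untranslated region of each gene (GENCODE release 29), CSF2 held 8 copies in 321 bases and CXCL2 held 10 in 724 bases. CXCL3 held 7, CXCL8 9, CXCL1 5, CXCL5 11, CSF3 7 and CCL20 3. Per kilobase, these 8 genes lay between 5.51 (CXCL5) and 24.92 (CSF2), at or above the 93.2 percentile of 18297 genes, whose median was 1.58. CCL2, with 1 copy in 476 bases (2.10 per kilobase, percentile 59.1), and CSF1, with 4 in 2157 bases (1.85, percentile 54.9), lay near the median. The longer core TTATTTATT occurred in CXCL1, CXCL2, CXCL3, CXCL8 and CSF2, and in 8.58% of the 18297 genes. CCL2 and CSF1, the pair with few pentamers, were called in opposite directions, and a link of pentamers to the changes was not tested.

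The 5 CXC members lie on chromosome 4 between 73740541 and 74099196, as the deposited table gives coordinates, together with CXCL6. Within that stretch CXCL8, CXCL1 and CXCL2 were called higher and CXCL6 and CXCL3 were not called, with CXCL3 next to CXCL2 among the chemokines there. CCL2 shares a stretch of chromosome 17 with CCL7, CCL11, CCL8, CCL13 and CCL1, each of which averaged under 0.5 FPKM in both groups, so that CCL2 was the only chemokine tested there.

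Receptors for these signals were nearly absent from the cells. Of 10 receptor genes 1 was tested: CXCR2, the receptor of the CXC members, had 2.03, 1.86 and 1.46 FPKM with IFN-beta, against 0.596, 0.783 and 1.14 FPKM in controls, and was called higher (0.78 ± 0.178, limma adjusted p = 0.00735). CXCR1 had 0 to 6 reads per IFN-beta library and 0 to 3 per control library, and CSF1R had 2 to 7 reads with IFN-beta and 0 to 2 in controls. CCR2, CCR6, CSF2RA and CSF2RB were listed at 0 in all libraries, and CSF3R, ACKR1 and ACKR2 had at most 2 reads in any.

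Of 18 cytokines and receptors that act on keratinocytes to induce or block such signals, 14 were tested. In this list 10 were called higher, 1 was called lower and the median was 0.67, where 22.5% of all tested genes were higher and 19.9% lower. IL6 (log2 change 2.20), IL1A (1.72), IL36G (1.43) and IL1RN, the interleukin 1 receptor antagonist (1.32), were the largest called changes. IL1A, an alarmin of keratinocytes, averaged 56.3 ± 0.711 FPKM with IFN-beta and 16.7 ± 1.08 FPKM in controls (limma adjusted p = 2.63e-08). IL1B had 174 ± 6.96 FPKM with IFN-beta and 70.3 ± 3.62 FPKM in controls (1.30 ± 0.048, limma adjusted p = 1.15e-07). TNF had 2.07 ± 0.417 FPKM with IFN-beta and 1.04 ± 0.0770 FPKM in controls (0.72 ± 0.146, limma adjusted p = 0.00393). IL1R1 (-0.07) and IL17RC (0.01) were not called. The 1 lower gene was TNFRSF1A, the main TNF receptor, at 94.1 ± 0.732 FPKM with IFN-beta and 105 ± 6.09 FPKM in controls (-0.16, limma adjusted p = 0.0207). Its call ended without any 1 of IFN-beta replicates 1, 2 and 3 or control replicates 1 and 2 (limma adjusted p = 0.0563, 0.0574, 0.0640, 0.0522 and 0.0746). It also ended with no minimum level (0.0530), with libraries rescaled to one sum (0.0876) and with eBayes without trend (0.0641).

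Genes of NF-kB, AP-1 and C/EBP factors followed, in a list that also held EGR1 and regulators of NF-kB. In it 17 of 22 were called higher (22.5% of all tested genes), 0 were called lower (19.9%) and the median was 0.36. The 17 include the NF-kB inhibitors TNFAIP3 (0.67) and NFKBIE (0.43), so they are not all activating factors. They also include FOSB, which met the minimum of 0.5 FPKM only through its IFN-beta libraries (mean 0.688 FPKM, against 0.336 FPKM in controls). FOSL1, an AP-1 subunit of keratinocytes, averaged 183 ± 6.64 FPKM with IFN-beta and 76.1 ± 8.21 FPKM in controls (1.27 ± 0.073, limma adjusted p = 2.56e-06). EGR1 (1.19), ATF3 (1.05) and FOS (0.99) also rose. NFKBIA, the NF-kB inhibitor, had 140 ± 3.09 FPKM with IFN-beta and 153 ± 10.6 FPKM in controls (-0.12, limma adjusted p = 0.0968), and the adaptor TRAF3IP2 had a change of 0.04, neither called. NFKBIZ, the nuclear cofactor needed for several of these chemokine genes, had 23.8 ± 0.549 FPKM with IFN-beta and 21.8 ± 1.53 FPKM in controls (0.13 ± 0.058, limma adjusted p = 0.111). Without IFN-beta replicate 3 the number called higher in this list was 11, and NFKBIA was called lower without control replicate 3 (limma adjusted p = 0.00560), after quantile normalization (0.0296) and with size factors (0.0339). NFKBIZ was called higher without control replicate 2 (limma adjusted p = 0.0480) and when libraries were rescaled to one sum (0.0471).

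Of 13 factors that shorten or lengthen the life of such messenger RNAs, all tested, 7 were called higher and 2 lower, with a median of 0.21, where 42.4% of all tested genes were called. ARID5A (0.80), which protects stem-loop messages, ZC3H12C (0.72), ZFP36 (tristetraprolin, 0.52) and ZFP36L1 (0.45) were the largest called changes. ZFP36, which binds AU-rich elements and speeds decay, averaged 13.7 ± 0.728 FPKM with IFN-beta and 9.39 ± 0.555 FPKM in controls (limma adjusted p = 3.22e-04). HNRNPD (-0.21, limma adjusted p = 0.00267) and PARN (-0.18, limma adjusted p = 0.00770) were the 2 lower genes. KHSRP (0.01) and CNOT1 (0.12, limma adjusted p = 0.0588) were not called. CNOT1 was called higher in 6 of 18 alternatives, among them without control replicate 1 (limma adjusted p = 0.0453), and its adjusted p ranged from 0.0206 with libraries rescaled to one sum to 0.165 without IFN-beta replicate 1.

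Other chemokine genes give the scale for the members. Of 19 listed, 8 were tested, 6 were higher (22.5% of all tested genes), 0 lower (19.9%), and the median was 1.29. Among the 8, CCL17 met the minimum of 0.5 FPKM only through its IFN-beta libraries (mean 2.68 FPKM, against 0.492 FPKM in controls). With no minimum level, 7 of the list were called higher. CXCL10, a ligand of the T cell receptor CXCR3 and a classical interferon target, had 209 ± 20.9 FPKM with IFN-beta and 0.920 ± 0.0783 FPKM in controls (7.20 ± 0.080, limma adjusted p = 3.61e-11). CXCL11 (6.10) acts on the same receptor, and CCL22 (2.22) and CCL17 (1.70) are ligands of CCR4. With IFN-beta the mean FPKM of CXCL10 was thus above that of CXCL8, the leading member, at 72.5 FPKM. CCL28 (0.24) and CCL26 (0.13) were not called, and CCL28 passed without control replicate 2 (limma adjusted p = 0.0249) and among protein-coding genes alone (0.0481).

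**Figure D5:**
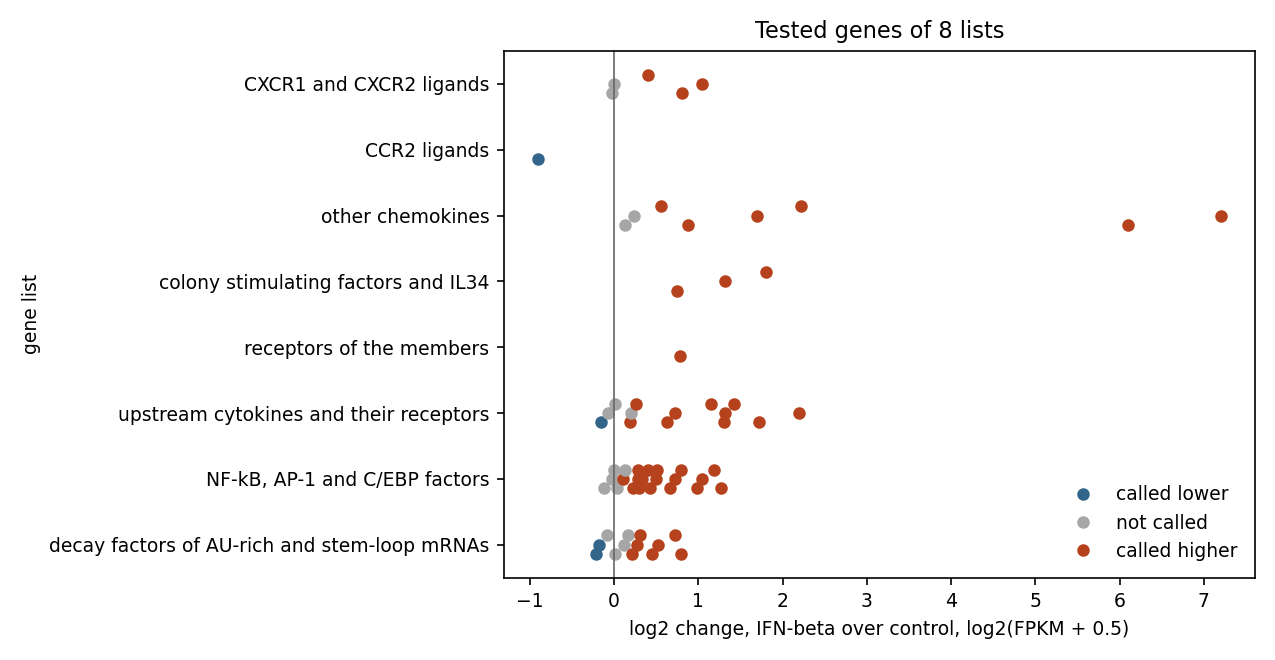
Log2 change of every tested gene in 8 gene lists, IFN-beta over control, one point per gene and coloured by its call, with points shifted vertically only for legibility. Apart from CCL2 (-0.90), the called falls are TNFRSF1A, HNRNPD and PARN, between -0.21 and -0.16.

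The genes whose pattern over the 6 libraries was most like that of a member were sought among the 9800 tested genes with a mean of at least 5 FPKM. For CCL2 they were RPLP0P6, TEX261, TOR3A, DLGAP5 and SPAG5, with Pearson r between 0.9984 and 0.9989, and for CXCL8 they were LY6E-DT, APOBEC3F, PDP1, FNDC3A and COG3, with r between 0.9977 and 0.9988. With 2 groups of 3 libraries such values are common: r was above 0.95 for 1073 genes against CCL2 and for 1132 against CXCL8. They describe shared differences between the groups, and carry no test.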

How the data were processed

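The authors deposited 1 table of FPKM for 60671 genes in 6 libraries, with Ensembl identifiers, symbols and coordinates; all 6 value columns were matched to samples by title. Per the labels' protocols, libraries were made from total RNA, and CLC Genomics Workbench 11.0.1 is listed without a step. The sources used here name no aligner and no counting program, nor say if strand was used. GRCm38 and mm10, both mouse builds, are listed per the submitters' processing notes, yet 60671 of 60671 identifiers are human, and 76.89% of the 58453 found in GENCODE release 29 (GRCh38) have the same coordinates there. Coordinates are the table's own, with the build inferred.

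Whole reads were recovered from the FPKM steps within 0.01 reads for 30506 of the 30507 genes above 0. In genes with few reads the true number may be a multiple, and read counts cover counting error only. Changes were tested with limma 3.58.1 in R 4.3.3 (lmFit, eBayes with trend, two-sided) on log2(FPKM + 0.5), over the 15163 genes with a mean of at least 0.5 FPKM, with Benjamini-Hochberg adjustment over all of them. The fit was run on simulated counts in which few genes changed, unlike in these data. That run therefore does not measure the error of the fit here. Tables, motif counts and figures used Python 3.11.15, pandas 2.3.3 and numpy 2.4.6. From each list, up to 4 called genes by size of change and up to 2 uncalled genes by level are named, besides the members and the tested receptors. IL1B, TNF, NFKBIZ, TNFRSF1A, HNRNPD and PARN, and the choice to count AU-rich pentamers and chromosomal neighbours, were added after values were seen. The members and lists were chosen with earlier results of these data known. Alternatives were pseudocounts of 0.1 and 1, no minimum level, a minimum of 2 FPKM, 3 other scalings, eBayes without trend or robust, leaving out each library, a replicate block, limma voom on recovered reads, and protein-coding genes alone.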

Additional observations from a re-analysis of the deposited data

How the results depend on the processing

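The 8 called members kept their direction and their call in all 142 alternative values. CCL2 lay between -0.94 and -0.85 on the log2 scale, with limma adjusted p between 2.75e-10 and 7.63e-05. CSF3 depended most on the scale, from 1.30 with a pseudocount of 1 to 3.16 with limma voom, and CSF3 and CXCL2 were not tested at a minimum of 2 FPKM. CXCL3, never called, became 0.037 with libraries scaled to one sum and 0.006 with limma voom, and leaving out 1 library gave values between -0.082 and 0.106.

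Among uncalled genes, CXCL6 became 0.026 with libraries scaled to one sum and lay between -0.041 and 0.024 with 1 library left out. IL17RC turned to -0.106 after quantile normalization and -0.010 with median-of-ratios size factors, and KHSRP to -0.016 with those size factors. With 1 library left out, IL17RC lay between -0.055 and 0.059 and KHSRP between -0.040 and 0.057. TRAF3IP2 was at -0.000 after quantile normalization. The cause of these turns was not tested. On recovered reads without length scaling, the ratio of CCL2 to CXCL8 was 0.487 with IFN-beta and 1.90 in controls, since the lengths of 866 and 980 bases no longer enter.

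With a replicate block, 5817 genes were called against 6431 without it, and all 8 called members stayed called. Same-numbered libraries did not deviate together (r = -0.052, -0.098 and -0.058 over 15163 genes). These values give no sign of pairing by number. They cannot exclude it, because low genes with much counting error enter them. No scaling moved the median of all genes by over 0.1. Depth limits CXCL5, CXCL2, CSF3 and CSF2, with 6 to 93 reads per library.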
